A study of Mus musculus with 18 samples.

Results

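Posterior Hox genes are the members at the 5′ ends of the 4 Hox clusters, and in the gut they are known as labels of the most distal segments. The set described here was a list of 9 genes: Hoxa11, Hoxa13, Hoxb13, Hoxc10, Hoxd10, Hoxd11, Hoxd12, Hoxd13 and Prac1. It was drawn up because these genes had already been seen to differ between the treatment groups of the same libraries, so their own differences are given below as levels. How many of them a fit over all genes called is stated beside the share of all genes called, with no p, and nothing is read from it where the set was chosen on that contrast. Of the 9, 8 were found among the 47729 genes of the count table, and Prac1 was not analysed here. The other 31 Hox genes of the table were tested together with all genes.

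The libraries are RNA-seq of mouse colon, 3 in each of 6 groups that cross genotype with treatment. The genotypes were wild type (WT) and Claudin-2 knockout (KO), which lacks the tight junction protein encoded by Cldn2; per the study's methods the mice were C57BL/6 littermates. Control mice were untreated, recovery mice had been given dextran sulfate sodium (DSS, a colitis-inducing agent) and then a period without it, for which the labels give no dose or length, and AOM/DSS mice had received 1 injection of the carcinogen azoxymethane (AOM) at 10 mg/kg followed by 3 cycles of 2.5% DSS. The ages of the mice and the length of colon from which each sample was cut are not in the labels, which say only colon, while the study's text speaks of distal colon. Libraries held 17643058 to 27390344 counted reads. Levels are given as CPM (reads of a gene per 1000000 reads, after TMM scaling), or as RPKM (CPM per 1000 bases of exon) where genes are compared with each other.

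Hox genes encode homeodomain transcription factors that lie in 4 clusters, and along each cluster the genes with low paralog numbers are used in anterior parts of the embryo and those with high numbers in posterior parts. This order persists in the adult intestine, where the paralogs of group 13 mark the distal hindgut. Hoxb13 is known for the distal colon and prostate, Hoxa13 and Hoxd13 for the hindgut, limb and urogenital tract, and Cdx2, a caudal-type homeobox gene, sits upstream of many Hox genes in the intestine.

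WT control 2 stood apart from the rest of its group. It had 0.327 CPM of Hoxb13 where the other 5 control libraries had 444 to 570.1, and for many genes described below it lay with the 6 recovery libraries. The labels do not settle whether this library carries the wrong label, was cut from another segment of colon or differs otherwise, and these cannot be told apart here. Counts of genes called in WT recovery against WT control are therefore given with and without it. The targeted gene did not separate it from its genotype: Cldn2 stood at 131, 44.5 and 127 CPM in WT control 1, 2 and 3 and at 0.0555 to 0.557 CPM in the 9 KO libraries. In the other WT groups it was at 309 to 504 CPM in recovery and 126 to 205 in AOM/DSS, so WT control 2 was the lowest WT library for Cldn2. Xist, the RNA of the inactive X chromosome, was at 865 to 1742 CPM in recovery 2 and 3 of both genotypes and in KO AOM/DSS 2 and 3. In the other 12 libraries it was at or below 1.16 CPM. Ddx3y, a gene of the Y chromosome, was at 70.5 to 105 CPM in the controls and 87.5 to 107 in WT AOM/DSS. Its lowest value was 0 in each recovery group and 0.0352 in KO AOM/DSS. By these genes sex was partly confounded with treatment, and with genotype in AOM/DSS, although the study's methods call the mice sex-matched. Because these are bulk samples, fewer cells that use a gene and less RNA per cell cannot be told apart.

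The members lie on 4 chromosomes (GRCm38). Hoxa11 (chr6:52242106-52245810) and Hoxa13 (chr6:52257694-52260880) are in the Hoxa cluster on the minus strand, Hoxb13 (chr11:96194316-96197447) ends the Hoxb cluster, and Hoxc10 (chr15:102966796-102971893) is in the Hoxc cluster. Hoxd13 (chr2:74668310-74671599), Hoxd12 (chr2:74675013-74677705), Hoxd11 (chr2:74679557-74687016) and Hoxd10 (chr2:74691924-74695105) follow each other on the plus strand. Hoxa11 overlaps the antisense transcript Hoxa11os, Hoxd10 and Hoxd11 overlap the transcript Gm28309, and Hoxc10 overlaps an annotated form of Hoxc5, so reads in the shared parts may have been split or left out.

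The RefSeq promoter table holds 6 of the 8 members, all but Hoxb13 and Hoxc10. Shown are 250 bases upstream of the start for the 3 of these 6 with the highest ratio of control to recovery, Hoxd13, Hoxd12 and Hoxa13, and for Hoxb8, a gene that was high where they were low. Capitals mark each match, on either strand, to TTTATG (the CDX-type site), TTTACGA (a posterior HOX-type site), CCAAT (the CCAAT box) or TATAAA (the TATA box), and matches may overlap.
Hoxd13 (GRCm38.p6 chr2:74667975-74668224, plus strand): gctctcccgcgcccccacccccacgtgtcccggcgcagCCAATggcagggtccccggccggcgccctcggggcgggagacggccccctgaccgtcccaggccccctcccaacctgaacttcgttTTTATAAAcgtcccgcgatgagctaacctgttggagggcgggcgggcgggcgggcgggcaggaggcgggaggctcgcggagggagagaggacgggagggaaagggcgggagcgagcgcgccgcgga
Hoxd12 (GRCm38.p6 chr2:74674763-74675012, plus strand): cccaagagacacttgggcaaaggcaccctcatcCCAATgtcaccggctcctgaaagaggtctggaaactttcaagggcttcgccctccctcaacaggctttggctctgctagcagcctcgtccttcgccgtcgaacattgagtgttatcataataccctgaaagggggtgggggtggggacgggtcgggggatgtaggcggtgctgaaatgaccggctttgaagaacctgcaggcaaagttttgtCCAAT
Hoxa13 (GRCm38.p6 chr6:52260881-52261130, minus strand): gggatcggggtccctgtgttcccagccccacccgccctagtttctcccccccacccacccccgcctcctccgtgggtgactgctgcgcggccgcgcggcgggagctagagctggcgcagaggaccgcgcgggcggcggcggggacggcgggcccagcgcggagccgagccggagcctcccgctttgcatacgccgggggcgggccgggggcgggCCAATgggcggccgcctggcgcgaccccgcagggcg
Hoxb8 (GRCm38.p6 chr11:96281655-96281904, plus strand): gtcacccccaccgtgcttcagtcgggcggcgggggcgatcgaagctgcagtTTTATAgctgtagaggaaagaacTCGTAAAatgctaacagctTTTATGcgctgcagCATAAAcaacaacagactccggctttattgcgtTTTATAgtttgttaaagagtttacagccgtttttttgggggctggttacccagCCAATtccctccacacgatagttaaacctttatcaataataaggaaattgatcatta
TTTATG occurred in 10.8% of all 32851 promoter stretches of this length, TTTACGA in 0.478%, CCAAT in 33.8% and TATAAA in 12.4%. The Hoxb8 stretch held 2 matches to TTTATG, 1 to TTTACGA, 1 to CCAAT and 2 to TATAAA. The Hoxd13, Hoxd12 and Hoxa13 stretches held no match to TTTATG or TTTACGA and had 1, 2 and 1 matches to CCAAT, and that of Hoxd13 had 2 to TATAAA. Hoxd11, also a member, has a TTTATG in 1 of its 2 promoters in the table, so the members are not alike in this. Nor are the other Hox genes in the table: Hoxb4, which rose in KO recovery, has no TTTATG there, and Hoxa7, which fell, has it. The Hoxa13 and Hoxd13 stretches were rich in CG dinucleotides, with 35 and 31 against a median of 6 over all promoters, and the Hoxd12 and Hoxb8 stretches had 10 and 12. These matches are letters in a window and say nothing of binding.

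**Figure D1:**
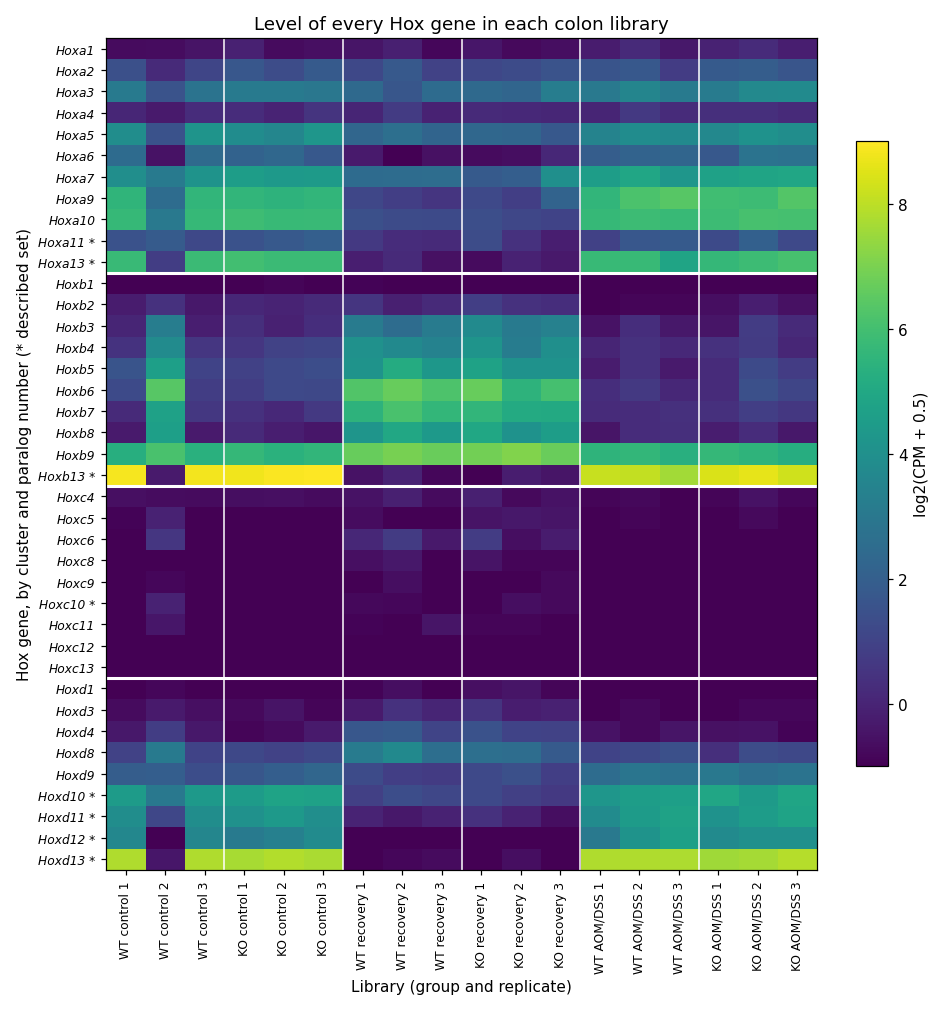
Level of each of the 39 Hox genes (rows, by cluster and paralog number, asterisks on the 8 described genes) in each of the 18 libraries (columns), as log2(CPM + 0.5). Hoxa13, Hoxb13 and Hoxd10 to Hoxd13 are bright in 5 control and 6 AOM/DSS libraries and dark or dim in the 6 recovery libraries and WT control 2, where Hoxb3 to Hoxb8 are bright instead.

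The group 13 paralogs Hoxa13, Hoxb13 and Hoxd13 were high in untreated and AOM/DSS colon, WT control 2 aside, and close to 0 in recovery, while the paralog Hoxc13 had 0 reads in every library. Hoxb13 had 465, 0.327 and 456 CPM in WT control and 444, 494 and 570.1 in KO control. In recovery it had 0.203, 0.502 and 0.0591 CPM in WT and 0, 0.371 and 0.246 in KO, and in AOM/DSS 285, 267 and 198 in WT and 345, 392 and 312 in KO. The 6 recovery libraries together held 26 reads of it, against 5 in WT control 2 and 4186 to 12093 in each of the remaining 11 libraries. Its level in KO control, 503 ± 63.6 CPM (SD, n = 3), was 2333 times the pooled level of KO recovery, and WT control 1 and 3 together were 1965 times WT recovery. Per exon length it was the highest Hox gene in all 11 libraries that expressed it, at 89.7 to 258 RPKM.

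Hoxd13, the terminal gene of the Hoxd cluster, had 222, 0.262 and 224 CPM in WT control and 208, 230.1 and 211 in KO control. In recovery it was at 0, 0.0717 and 0.118 CPM in WT and 0, 0.139 and 0 in KO, and in AOM/DSS at 226, 222 and 219 in WT and 192, 202 and 235 in KO. Each recovery group held 3 reads in all, so KO control over KO recovery was 4357-fold with a 95% counting interval of 1491 to 21132, and WT control 1 and 3 over WT recovery 4111-fold with an interval of 1406 to 19937. The libraries that expressed Hoxd13 lay close together, between 192 and 235 CPM, with 222 ± 3.60 in WT AOM/DSS and 216 ± 12.1 in KO control (SD, n = 3).

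Hoxa13 was at 54.5, 1.24 and 55.2 CPM in WT control and 62.6, 56.1 and 56.4 in KO control. In recovery it had 0.407, 0.646 and 0.177 CPM in WT and 0.107, 0.464 and 0.295 in KO, and in AOM/DSS 53.4, 53.5 and 28.3 in WT and 50.6, 57.5 and 67.3 in KO. KO control was 197 times KO recovery and WT control 1 and 3 were 138 times WT recovery. WT AOM/DSS 3 was the lowest of the 11 expressing libraries for both Hoxa13 and Hoxb13, while its Hoxd13 lay among the others.

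**Figure D2:**
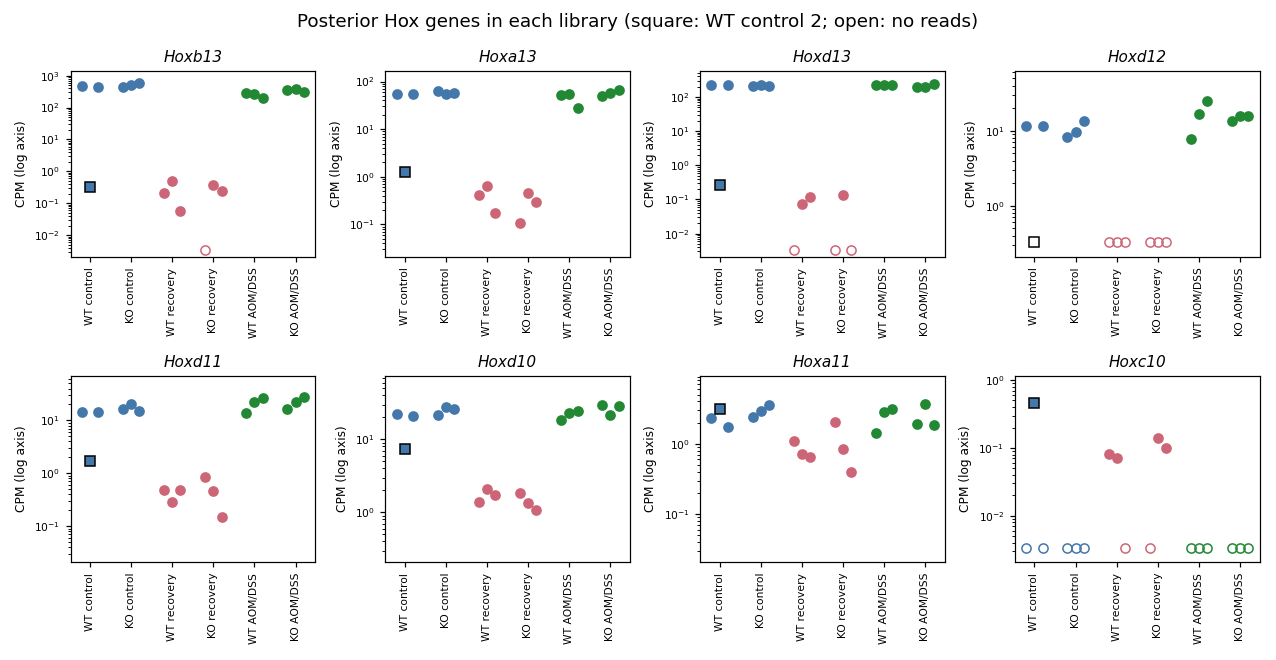
CPM of the 8 posterior Hox genes (log axis) in each library, one column per group of 3, with WT control 2 as a square and libraries without reads as open symbols at the bottom. No library lies between 0.502 and 198 CPM for Hoxb13, between 0.262 and 192 for Hoxd13 or between 1.24 and 28.3 for Hoxa13. Hoxd12 is at 0 or at 7.84 and above. Hoxa11 ranges from 0.394 to 3.67 CPM, with recovery below control within each genotype but overlap across genotypes and, in KO, with AOM/DSS.

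The remaining Hoxd members were low in recovery as well, and for Hoxd12 the ratio is a lower bound. Hoxd12 had 11.8, 0 and 11.6 CPM in WT control, 8.23, 9.65 and 13.5 in KO control, 7.84, 16.9 and 25.3 in WT AOM/DSS and 13.3, 15.6 and 15.7 in KO AOM/DSS. No read of it was counted in any recovery library, so at a floor of 3 reads per group KO control was at least 210.0-fold higher than KO recovery and WT control 1 and 3 at least 216-fold higher than WT recovery. WT control 2 held no read of it either.

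Hoxd11 was at 14.3, 1.70 and 14.6 CPM in WT control and 16.3, 20.8 and 14.9 in KO control. In recovery it had 0.488, 0.287 and 0.473 CPM in WT and 0.857, 0.464 and 0.148 in KO, and in AOM/DSS 13.5, 21.9 and 26.9 in WT and 16.5, 22.7 and 27.6 in KO. Hoxd10 was at 22.0, 7.46 and 21.0 CPM in WT control and 21.8, 27.7 and 26.0 in KO control. In recovery it had 1.38, 2.08 and 1.72 CPM in WT and 1.82, 1.35 and 1.08 in KO, and in AOM/DSS 18.3, 23.2 and 24.4 in WT and 29.5, 21.3 and 28.9 in KO. For both genes WT control 2 lay between the recovery libraries and the rest rather than among the recovery libraries. The ratio of KO control to KO recovery was 36.0 for Hoxd11 and 17.9 for Hoxd10, and that of WT control 1 and 3 to WT recovery was 33.3 and 12.99.

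Hoxa11 was lower in recovery than in control within each genotype, but by less than the others, and Hoxc10 did not share their pattern. Hoxa11, which is best known from limb and uterus, stood at 2.36, 3.14 and 1.75 CPM in WT control and 2.37, 2.94 and 3.61 in KO control. In recovery it had 1.10, 0.717 and 0.651 CPM in WT and 2.03, 0.835 and 0.394 in KO, and in AOM/DSS 1.404, 2.80 and 3.07 in WT and 1.90, 3.67 and 1.83 in KO. WT control 2 was among the highest libraries for Hoxa11, and KO recovery 1, at 2.03 CPM, lay inside the range of the AOM/DSS libraries. Hoxc10 had 7 reads (0.458 CPM) in WT control 2, 8 reads over the 6 recovery libraries and none in the other 11 libraries, which was too few for the filter of the test.

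In the comparison of WT recovery with WT control, edgeR's quasi-likelihood test at an adjusted p under 0.05 called 22.2% of 16937 genes, 12.2% being lower in recovery and 10% higher. All 7 tested members were called lower. Without WT control 2, 6 of 7 were called against 25.1% of 17353 genes. KO recovery against KO control called 19.4% of genes, 9.43% higher and 10% lower, and 6 of 7 members, all lower, the uncalled member being Hoxa11. AOM/DSS against recovery called 24.3% of genes in WT (12% higher, 12.4% lower) and 17.8% in KO (9.11% higher, 8.66% lower), with 7 and 6 of 7 members higher. Since these contrasts are those the set was chosen on, nothing is read from the counts.

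No member was called between AOM/DSS and untreated colon. WT AOM/DSS against WT control called 10.4% of genes and 0 of 7 members with WT control 2 in the fit, and 1.99% of 17353 genes and again 0 of 7 without it. KO AOM/DSS against KO control called 0.195% and 0 of 7. By level, Hoxb13 was at 312 to 392 CPM in KO AOM/DSS and 444 to 570.1 in KO control, a ratio of 1.43, and these libraries did not overlap, which was so for 29.1% of all genes tested. In WT, control 1 and 3 together were 1.84 times AOM/DSS. Hoxd13 by contrast had a KO AOM/DSS level of 209.7 ± 22.5 CPM against 216 ± 12.1 in KO control (SD, n = 3), and the libraries overlapped. KO control 1 and WT AOM/DSS 3 also held RNA of the male accessory glands: Pbsn, encoding the prostatic protein probasin, was at 21.6 CPM in KO control 1 and 83.2 in WT AOM/DSS 3 and at or below 0.0393 elsewhere, and Tgm4, a prostate transglutaminase, was at 13.4 and 24.3 CPM in them. Both had the lowest Hoxb13 of their groups, and the part of that tissue in the Hoxb13 values was not tested.

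No member was called between genotypes. KO recovery against WT recovery called 0.974% of genes and KO AOM/DSS against WT AOM/DSS 0.0059%, with 0 of 7 members in each, and KO control against WT control called 1.17% and 0 of 7, or 1.14% and 0 of 7 without WT control 2. Hoxb13 levels were 0 to 0.371 CPM in KO recovery and 0.0591 to 0.502 in WT recovery, which overlapped. In AOM/DSS its 3 KO libraries (312 to 392 CPM) lay above the 3 WT libraries (198 to 285 CPM), which was also so, in either direction, for 11.3% of all genes tested. The 2 interaction terms, the difference between KO and WT in the recovery response and in the AOM/DSS response, called 0.13% and 0.0118% of genes with no member and no other Hox gene among them. An unadjusted p under 0.05 was found for 4 and 6 of the 21 other Hox genes tested, beside 18.5% and 8.44% of all genes. Both terms include WT control 2. Without it, an alternative chosen after seeing the data, they called 0.115% and 0.0288% of 17353 genes and again no Hox gene, and 0 and 1 of 22 other Hox genes had an unadjusted p under 0.05, beside 16.1% and 6.75% of all genes.

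The other Hox genes were tested with all genes, and 21 of 31 passed the filter on low counts. In KO recovery against KO control 8 were higher and 6 lower, beside 19.4% of all genes called. Their median log2 fold change was 0.71 against 0.00 for all genes. The WT comparison with all 3 control libraries called 3 higher and 4 lower, beside 22.2% of all genes, with a median of 0.61 against -0.04 for all genes. Without WT control 2 it called 10 higher and 5 lower of 22 tested, beside 25.1% of all genes, with a median of 1.285 against -0.04 for all genes. In KO recovery the called Hoxb genes (Hoxb3 to Hoxb9) rose and the called Hoxa genes (Hoxa5, Hoxa6, Hoxa7, Hoxa9 and Hoxa10) fell, while in the Hoxd cluster Hoxd4 rose and Hoxd9 fell. These levels are drawn in the plot of levels along the clusters.

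**Figure D3:**
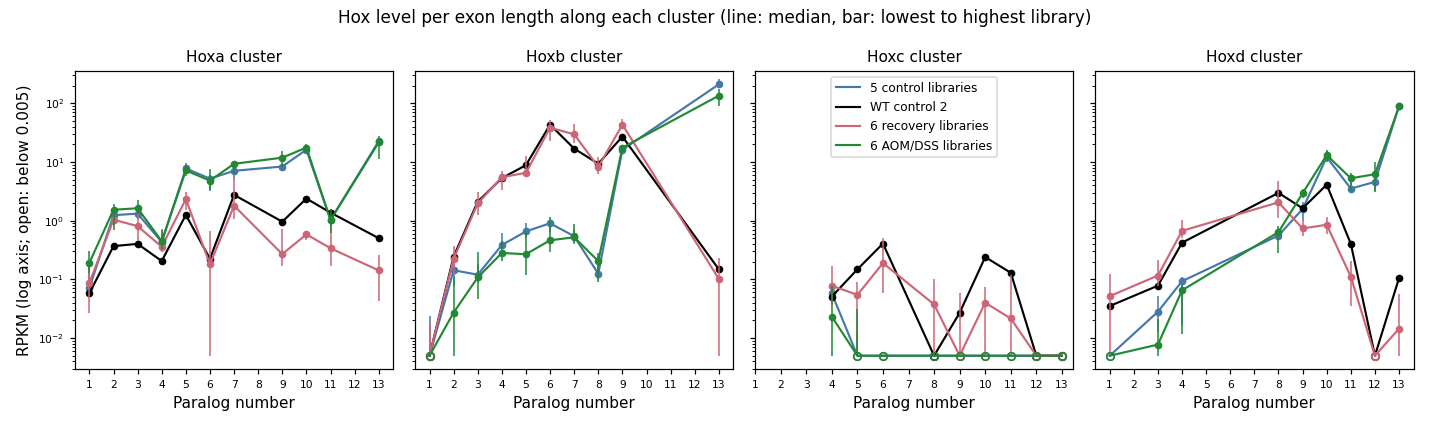
RPKM (log axis) of every Hox gene against its paralog number, in 1 panel per cluster, as the median of the named libraries with bars from the lowest to the highest library and WT control 2 as a single library. In the Hoxb panel the recovery libraries and WT control 2 lie above the others at numbers 3 to 8 and far below at 13, and in the Hoxd panel the lines cross between 8 and 10.

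Within the Hoxb cluster the rise was large for the middle genes. Hoxb6 was at 1.26 to 1.85 CPM in 5 control libraries, 85.1 in WT control 2, 44.1 to 102 in recovery and 0.567 to 2.24 in AOM/DSS, a log2 fold change of 5.43 ± 1.22 (SE, n = 3) in KO recovery against KO control (adjusted p = 0.0071). With WT control 2 the WT change was 1.53 (adjusted p = 0.29), and without it 5.72 ± 0.48 (adjusted p = 1.1e-06). Hoxb7 (32.9 to 70.0 CPM in recovery against 0.61 to 1.08 in 5 controls) and Hoxb8 (16.6 to 31.7 against 0.269 to 0.641) also rose in KO, with adjusted p = 0.0029 and 0.0077. Hoxb3, Hoxb4 and Hoxb5 stood at 5.31 to 13.1, 8.72 to 17.8 and 16.4 to 34.6 CPM in recovery and at 0.384 to 2.56 CPM in the 5 controls.

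Hoxb9, the neighbour of Hoxb13 in the cluster, was expressed throughout, at 38.3 to 49.99 CPM in 5 control libraries, 70.0 in WT control 2, 103 to 139 in recovery and 37.2 to 50.6 in AOM/DSS. It rose by 1.38 ± 0.21 in KO recovery (adjusted p = 0.00067) and 1.15 ± 0.20 in WT recovery (adjusted p = 0.002), with or without WT control 2. Of the Hoxd genes of low number, Hoxd4 rose in both genotypes, at 1.48 to 3.01 CPM in recovery against 0.0493 to 0.323 in 5 controls, and Hoxd1 and Hoxd3 did not pass the filter. Hoxd8 was at 3.10 to 12.98 CPM in recovery against 1.44 to 1.78. Hoxd8 was not called in KO (adjusted p = 0.08), and in WT only without WT control 2 (2.56 ± 0.46, adjusted p = 0.00093).

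In the Hoxa cluster the fall extended below group 10. Hoxa10 was at 51.5 to 58.8 CPM in 5 control libraries, 7.79 in WT control 2, 1.53 to 2.20 in recovery and 51.7 to 66.9 in AOM/DSS, with a log2 change of -4.96 ± 0.51 in KO recovery (adjusted p = 8e-05) and -4.19 ± 0.49 in WT recovery (adjusted p = 0.00023). Hoxa9 was at 43.8 to 47.9, 5.37, 0.946 to 3.99 and 46.8 to 84.4 CPM in the same order, and changed by -4.28 ± 0.63 in KO recovery (adjusted p = 0.00068). Hoxa6 (2.85 to 5.15 CPM in 5 controls against 0 to 0.59 in recovery) fell by 3.73 ± 0.89 on the log2 scale and Hoxa5 (11.54 to 18.4 against 2.903 to 5.74) by 1.91 ± 0.47 in KO. Hoxa2 and Hoxa3 were not called in either genotype, at 1.48 to 2.94 and 2.73 to 8.96 CPM in recovery against 1.65 to 3.07 and 6.42 to 8.05 in 5 controls. Hoxa7 was called in KO (-1.58 ± 0.46, adjusted p = 0.026) where KO recovery 3, at 15.4 CPM, lay below KO control but inside the range of the 5 controls. Hoxd9, at 1.18 to 2.18 CPM in recovery and 2.08 to 4.47 in 5 controls, was called in both genotypes, but in WT not without WT control 2 (adjusted p = 0.064).

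Along the Hoxd cluster the ratio of KO control to KO recovery went from 4357 for Hoxd13 and at least 210.0 for Hoxd12 to 36.0 for Hoxd11, 17.9 for Hoxd10 and 1.97 for Hoxd9, and at Hoxd8 and Hoxd4 it turned, with recovery 2.83 and 11.2 times control. In WT, with control 1 and 3, the same steps were 4111, at least 216, 33.3, 12.99 and 1.83, then 5.87 and 9.06 in favour of recovery. From Hoxd11 to Hoxd4 the ratios fell in the order of the genes in both genotypes. Hoxd3 broke that order, with recovery 4.56 times control in KO and 3.81 times control 1 and 3 in WT on 6 to 34 reads per group. The annotated span of Hoxd3 holds that of Hoxd4 on the same strand, so reads in shared parts may have been split or left out. Hoxd1 had 9 reads in KO recovery and 0 in KO control. The values for Hoxd13 and Hoxd12 rest on 3 and 0 reads per recovery group. The Hoxa cluster showed no such order, since Hoxa11 (2.79 in KO) lies between Hoxa13 (197) and Hoxa10 (31.5).

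Summed over all 39 Hox genes, the level per exon length was 405 to 465 RPKM in 5 control libraries, 293 to 394 in AOM/DSS, 129 to 195 in recovery and 135 in WT control 2. Paralogs 10 to 13 made up 86.1% to 88.3% of that sum in the 5 controls and 80.7% to 84.3% in AOM/DSS, but 1.15% to 1.74% in recovery and 6.98% in WT control 2. Their place was taken by paralogs 6 to 8, at 42.3% to 59.8% in recovery against 2.82% to 3.65% in the 5 controls, and by paralog 9, at 25.2% to 42.8% against 5.96% to 7.23%. The number of Hox genes at or above 1 CPM was 19 to 21 in the controls, 16 to 20 in recovery and 16 to 22 in AOM/DSS.

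The noncoding transcripts Hottip and Hoxa11os of the posterior Hoxa cluster went with the members. Hottip, a long noncoding RNA made next to Hoxa13, was at 17.1 to 30.1 CPM in 5 control libraries, 0 in WT control 2, 0 to 0.0464 in recovery and 5.39 to 24.2 in AOM/DSS (adjusted p = 0.0036 in WT and 0.0017 in KO recovery), and WT control 1 and 3 were at least 327-fold higher than WT recovery. Hoxa11os, on the strand opposite Hoxa11, was at 37.6 to 73.7 CPM, 2.10, 0.197 to 0.789 and 20.7 to 58.7 in the same order, unlike Hoxa11 itself, which WT control 2 expressed. Of 9 Hox noncoding RNAs tested, 2 were higher and 2 lower in WT recovery (4 and 2 without WT control 2) and 1 higher and 3 lower in KO recovery, Hoxd3os1 being the higher one in KO (0.443 to 2.08 against 0.0555 to 0.236 CPM in 5 controls) and Hoxaas3 being called in WT with 2.63 to 6.16 CPM in 5 controls and 3.99 to 8.96 in recovery. Strand was not stated for the counting, so reads of Hoxa11 and Hoxa11os in their overlap cannot be told apart.

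Within 250 kb outside the Hox genes, 24 genes passed the filter. Of these, 2 were higher and 4 lower in WT recovery against control and 0 higher and 4 lower in KO, beside 22.2% and 19.4% of all genes called. Without WT control 2, 1 was higher and 6 lower in WT, beside 25.1% of all genes. In AOM/DSS against recovery 9 were higher and 3 lower in WT and 9 higher and 1 lower in KO, beside 24.3% and 17.8% of all genes. Evx2, a homeobox gene 8.75 kb beyond Hoxd13, had no read in any recovery library or WT control 2 and 6.51 to 9.54 CPM in the 5 controls, which makes KO control at least 172-fold higher than KO recovery (adjusted p = 0.0031). Hottip (1.90 kb) and a predicted gene 15.5 kb beyond the Hoxb cluster were also lower in both genotypes, as was Skap2, a Src kinase adaptor 143 kb from the Hoxa cluster, with log2 changes of -1.12 in WT (adjusted p = 0.0055) and -1.76 in KO (adjusted p = 0.0005). The genes called higher in WT were Atp5g2 (0.73) and Mtx2 (0.89), neither of which was called in KO, and Atp5g2 was not called without WT control 2 (adjusted p = 0.0575). Evx1, beyond Hoxa13, was not called in recovery against control in WT (log2 change -3.63, adjusted p = 0.28) or KO (-0.67, adjusted p = 0.77). It was higher in AOM/DSS than in recovery in WT (9.27, adjusted p = 0.0041) and KO (4.73, adjusted p = 0.022). In WT AOM/DSS it was also higher than in WT control (5.64, adjusted p = 0.025). Against control, AOM/DSS called 4 neighbours higher and 1 lower in WT, beside 10.4% of all genes, and 0 in KO. Without WT control 2 the WT count was 0 higher and 0 lower.

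The profile of the members over the 18 libraries, taken as the mean of their centred log2 CPM, was compared with that of 16889 named genes by the root mean square difference, for which the median gene had 3.11. The nearest were Evx2 (0.416), Hoxa11os (0.455), Ctse (0.455), Anxa8 (0.504), Pla2g4f (0.587), Tmprss13 (0.625), Nxpe4 (0.626), Casp14 (0.660), Mettl7a3 (0.677) and Cma1 (0.714). Of these, Ctse (cathepsin E) stood at 68.1 to 126 CPM in 5 control libraries, 4.26 in WT control 2 and 0.640 to 2.15 in recovery, and Anxa8, an annexin, at 168 to 271, 8.12 and 2.42 to 6.17. Members themselves were at 0.457 (Hoxa13) to 2.56 (Hoxa11) from their mean.

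Among the 10 genes nearest to the mirror image of that profile were Ugt8a (0.518), Cst6 (0.593), Hoxb7 (0.611), Nags (0.710), Hoxb8 (0.720), Hoxb6 (0.730), Slc10a2 (0.734), Cyp2c66 (0.737) and B3gnt6 (0.778), and 3 of the 10 were middle Hoxb genes. Ugt8a was at 0.165 to 0.277 CPM in 5 controls, 15.6 in WT control 2, 17.7 to 55.4 in recovery and 0 to 0.436 in AOM/DSS. Nearness was measured on the libraries that defined the pattern and is a description.

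Among 22 regional transcription factors of the gut, 16 were tested, of which 2 rose and 1 fell in KO recovery and 0 rose and 3 fell in WT recovery, or 2 and 1 without WT control 2. These shares are near the 19.4% and 22.2% of all genes called (25.1% without WT control 2), so the list as a whole is no result. Cdx2 was at 18.6 to 31.0 CPM in 5 control libraries, 337 in WT control 2, 214 to 242 in recovery and 13.6 to 28.2 in AOM/DSS, a log2 change of 2.99 ± 0.77 in KO recovery (adjusted p = 0.014) and of 0.85 ± 0.71 in WT (adjusted p = 0.42), or 3.34 ± 0.24 without WT control 2 (adjusted p = 1.94e-07). Cdx1, its paralog, named here after its values were seen, was at 202 to 274 CPM in 5 controls and 157 to 245 in recovery and was not called (-0.11 ± 0.20 in KO). Isx, an intestinal homeobox gene of vitamin A uptake, was at 0.646 to 2.83 CPM in 5 controls, 192 in WT control 2, 166 to 313 in recovery and 3.37 to 16.2 in AOM/DSS (7.37 ± 1.51 in KO, adjusted p = 0.0042). Foxf1 (-1.26 ± 0.38) and Hnf4a (-0.60 ± 0.20) were among the genes called lower in WT, though not without WT control 2 (adjusted p = 0.083 and 0.099), and Foxf2 was called lower in KO (-1.38 ± 0.46).

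**Figure D4:**
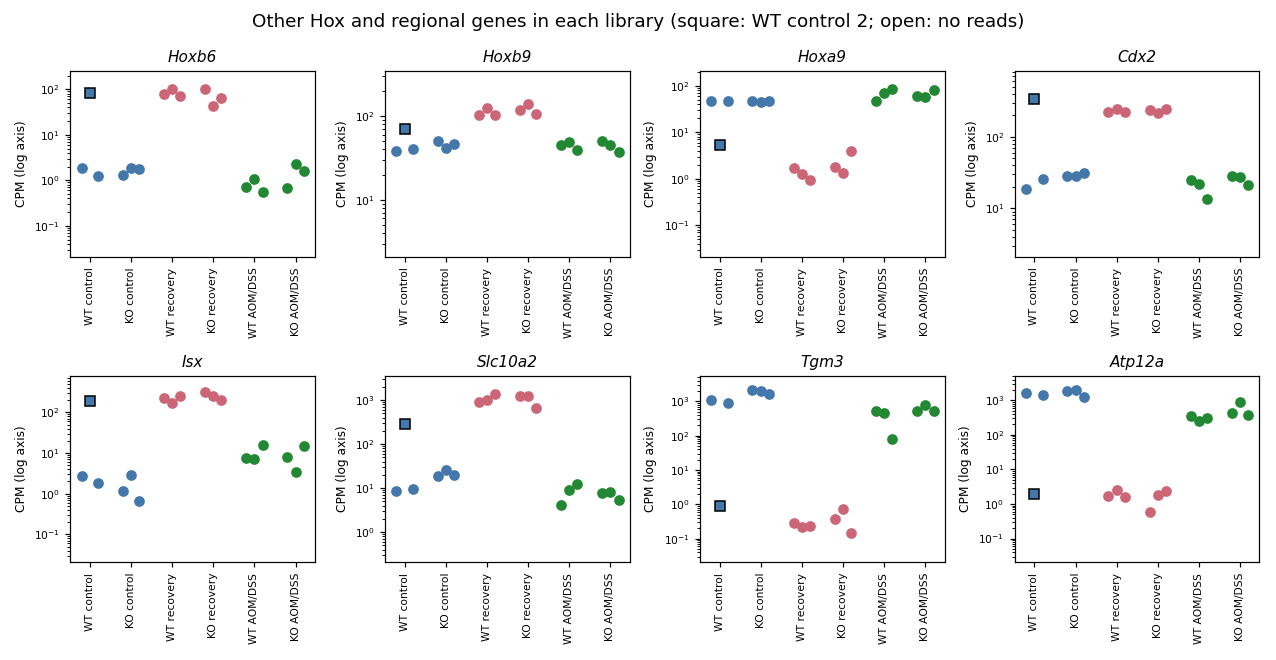
CPM (log axis) of 3 further Hox genes (Hoxb6, Hoxb9, Hoxa9) and 5 regional genes (Cdx2, Isx, Slc10a2, Tgm3, Atp12a) in each library, drawn as for the posterior genes. Hoxb6, Cdx2, Isx and Slc10a2 are high in recovery and in WT control 2 and low elsewhere, and Hoxa9, Tgm3 and Atp12a are the reverse, while Hoxb9 is present in every library.

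Epithelial genes with a known place along the gut were counted beside the 22.2% of all genes called in WT recovery and the 19.4% called in KO recovery. Of 10 distal colon genes, 4 fell and 0 rose in KO and 6 fell and 1 rose in WT (5 and 2 without WT control 2), with medians of -1.64 and -2.44 on the log2 scale. Tgm3, a transglutaminase, was at 883 to 2176 CPM in 5 control libraries, 0.917 in WT control 2, 0.148 to 0.742 in recovery and 78.1 to 793 in AOM/DSS, and Atp12a, the colonic proton-potassium pump, at 1219 to 2022 CPM, 1.90, 0.589 to 2.51 and 252 to 901. Trpv6, a calcium channel, was at 25.5 to 91.7, 0.131, 0.0464 to 0.107 and 28.2 to 59.7 CPM. The water channel Aqp8 fell in WT (-3.71 ± 1.06), though WT control 2 had 2303 CPM of it, more than the other controls, and it was not called without that library (adjusted p = 0.054). Scnn1b, a sodium channel subunit, rose in WT (1.54 ± 0.48).

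Of 8 proximal colon genes, 3 rose and 0 fell in KO recovery and 1 rose and 1 fell in WT recovery, or 5 and 1 without WT control 2. Cyp2c65 was at 2.03 to 19.5 CPM in 5 control libraries, 945 in WT control 2, 653 to 1198 in recovery and 1.75 to 15.2 in AOM/DSS, while Ang4 (4.87 to 31.6 in recovery against 0.472 to 2.51 in 5 controls) and Fut2 also rose in KO and Slc37a2 fell in WT. Of 15 small intestinal genes tested, 6 rose and 0 fell in KO recovery and 3 rose and 0 fell in WT recovery (6 and 0 of 16 without WT control 2), among them Slc10a2, the bile acid transporter of ileum, at 8.41 to 25.3 CPM in 5 controls, 286 in WT control 2 and 665 to 1414 in recovery. Sis (sucrase-isomaltase), Alpi (intestinal alkaline phosphatase) and Fabp2 (a fatty acid binding protein) were at 24.6 to 182, 15.96 to 41.2 and 405 to 2173 CPM in recovery, and at 0 to 0.111, 0.215 to 1.39 and 19.1 to 37.6 in 5 controls. Some other genes of the list, named after their values were seen, were low: Defa24 was at or below 0.122 CPM in every control and recovery library, Apoa4 reached at most 1.25 CPM, and Lyz1 was at 0.118 to 2.58 CPM in recovery. Others were abundant without treatment: Mep1a, Slc5a1 and Apob averaged 270, 231 and 186 CPM in WT control 1 and 3.

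The list of enteroendocrine hormone genes mixed hormones of the colon with others, such as Cck, Sct, Gip and Ghrl, that are known mainly from the stomach and upper small intestine. Insl5, a peptide of distal colonic L cells, was at 64.1 to 85.5 CPM in 5 controls, 0.131 in WT control 2 and 0.837 to 7.10 in recovery (-4.04 ± 1.21 in KO, adjusted p = 0.03), while Nts (neurotensin) was at 0.118 to 0.439, 36.7 and 24.8 to 157 CPM (7.14 ± 1.61 in KO, adjusted p = 0.0072). In KO 4 of the 7 tested rose (Nts, Sct, Cck and Gcg) and 1 fell, and in WT 0 did, or 3 and 2 without WT control 2. The position of the samples along the colon is not in the labels, so position and treatment cannot be told apart in the recovery group, and the part of position in the Hox levels was not tested.

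Lists of Hox partners and regulators were counted in the same fit, in which 19.4% of all genes were called in KO recovery and 22.2% in WT. Of 9 TALE homeodomain cofactors 4 fell and 0 rose in KO recovery and 4 fell and 1 rose in WT (4 and 3 without WT control 2), among them Meis1 (2.17 to 5.35 CPM in recovery against 9.32 to 14.3 in 5 controls and 12.8 in WT control 2), Meis2, Pbx3 and, in WT, Pknox2, while Pbx2 rose in WT by 0.40 ± 0.14. Of 17 Polycomb and trithorax genes, 2 rose in KO (Cbx7 by 0.96 ± 0.22 and Kmt2b by 0.48 ± 0.15) and 1 rose (Eed, of the Polycomb repressive complex, by 0.55 ± 0.14) and 1 fell (Kmt2b, -0.43 ± 0.15) in WT, a share below that of all genes. Without WT control 2 the WT counts were 2 and 0, and Kmt2b was not called (adjusted p = 0.051). Of 11 retinoic acid genes tested, 2 rose and 1 fell in KO and 0 changed in WT, or 4 rose without WT control 2. Aldh1a1, which makes retinoic acid, was at 25.1 to 60.2 CPM in 5 controls, 917 in WT control 2, 797 to 2048 in recovery and 6.15 to 32.1 in AOM/DSS (4.27 ± 1.09 in KO, adjusted p = 0.014). The receptor gene Rarg rose in KO by 1.36 ± 0.41 and Rarb fell (-1.23 ± 0.38).

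Markers of other tissue layers were counted beside the same shares of all genes. All 10 smooth muscle genes fell in KO recovery and 7 of 10 in WT, led by Actg2 (-3.21 ± 0.66 in KO), and their summed level was 862 to 2280 CPM in recovery, 4092 to 10718 in the controls, 4767 in WT control 2 and 627 to 6325 in AOM/DSS. Of 8 fibroblast genes 4 fell in KO and 3 in WT, of 10 enteric neuron and glia genes 0 were called in either, and of 14 leukocyte genes 4 rose and 4 fell in KO and 0 rose and 6 fell in WT. Without WT control 2, 3 leukocyte genes rose and 6 fell in WT, and the WT counts for smooth muscle, fibroblast and neuron and glia genes were again 7, 3 and 0. Their summed levels in recovery and in the controls were 187 to 314 and 491 to 817 CPM for fibroblast genes, 51.1 to 85.4 and 100.4 to 126 CPM for neuron and glia genes, and 60.5 to 242 and 82.5 to 1117 CPM for leukocyte genes. Of 12 colonocyte genes 2 rose and 2 fell in KO and 1 rose and 4 fell in WT (1 and 2 without WT control 2), and Epcam, their surface marker, was at 1815 to 2434 CPM in recovery and 2095 to 2417 in the controls. Among the called genes were the collagen gene Col3a1 (-2.51 ± 0.35 in KO), the macrophage lysozyme gene Lyz2 (-3.36 ± 0.53 in KO), the neutrophil gene S100a9 (7.02 ± 1.90 in KO) and the goblet cell mucin gene Muc2 (2.21 ± 0.32 in WT). The part of these cells in the Hox levels was not tested.

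Several squamous and accessory gland genes were sparse, but not all. Of 7 anorectal squamous genes tested 1 rose in KO recovery (Sprr1a) and 0 in WT, with or without WT control 2. The list's sum was 9.76 to 45.2 CPM in recovery and 7.89 to 72.5 in the controls. The keratins Krt4, Krt6a and Krt13 were at or below 0.984 CPM in every recovery library. Krt14 and Sprr1a reached 11.1 and 41.8 CPM in recovery, and 5.92 and 70.4 in the controls. Of 3 accessory gland genes tested, 1 rose in each genotype (Fkbp5, which many tissues express) and 1 fell in KO (Spink1), or 1 rose and 1 fell of 5 in WT without WT control 2. Pbsn was at 0 in all recovery libraries, while Fkbp5 and Spink1 were at 305 to 876 and 15.6 to 134 CPM in them. With the Xist level as a covariate, edgeR called 6 other Hox genes in WT and 13 in KO recovery, where 7 and 14 were called without it, and its part in the members' levels was not tested.

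AOM/DSS against recovery gave the mirror image in the other Hox genes. In WT 6 rose and 10 fell and in KO 6 rose and 9 fell of 21 tested, beside 24.3% and 17.8% of all genes called. The medians over all 21 were -1.31 and -1.44. The genes that rose were Hoxa5, Hoxa6, Hoxa7, Hoxa9, Hoxa10 and Hoxd9 in both genotypes, Hoxa10 by 5.15 ± 0.51 in KO (adjusted p = 9.2e-05) and 4.74 ± 0.50 in WT (adjusted p = 0.00011). This comparison shares its recovery libraries with the comparison against control, so its direction is not a separate observation of recovery. It does not use WT control 2. Against control, WT AOM/DSS called 1 higher (Hoxd9) and 5 lower (Hoxb2, Hoxb4 to Hoxb7), beside 10.4% of all genes. Without WT control 2 it called 0 higher and 2 lower, beside 1.99% of all genes. KO AOM/DSS called 0 of 21 by edgeR, beside 0.195% of all genes, with 2 at an unadjusted p under 0.05, 1 by DESeq2 and 2 by limma-voom.

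Between genotypes no other Hox gene was called by edgeR in control, recovery or AOM/DSS. In control 7 of 21 had an unadjusted p under 0.05 and DESeq2 called 4 lower in KO, with WT control 2 in the fit and limma-voom at 0. In recovery 0 and in AOM/DSS 1 of 21 had an unadjusted p under 0.05, with 0 calls by DESeq2 and limma-voom.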

How the data were processed

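RNA-seq of mouse colon was read as the deposited table of raw counts per gene, which the authors made with featureCounts of the Subread package on GRCm38. The submitters' processing notes name HISAT2 as the aligner and the study's methods TopHat2, and versions and the strand setting are not given in the sources used here. The table holds 36 columns, 2 lanes of each of 18 libraries, which were summed. Between the lanes of a library the chi-square statistic divided by its degrees of freedom was 1.08 to 1.18, and between replicate libraries it was at least 11.9. Symbols came from the GENCODE annotation for 47310 of 47729 genes.

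Counts were scaled by TMM and filtered with filterByExpr (16937 genes kept), and 6 groups were fitted together with edgeR 4.0.16 (R 4.3.3) by its quasi-likelihood test with Benjamini-Hochberg adjustment over all genes tested. DESeq2 1.42.0 and limma 3.58.1 (voom) were alternatives. The fitting was tested on simulated data. Folds of members are ratios of pooled CPM, with a floor of 3 reads per group and, at 1 to 3 reads, an exact 95% interval that covers counting error only. Labels do not say that samples are separate animals, while the study's legends give n = 3 per group for its RNA-seq panels. Xist was high in some libraries and near 0 in others of both recovery groups and of KO AOM/DSS. The libraries of these groups were thus not all from a single animal. The p-values measure the spread between samples, which in the other groups may be technical.

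The members and gene lists were chosen with earlier results of these data known. Genes were named by rule: all members, other Hox genes with a group mean of 1 CPM, and per list up to 4 genes each way with the largest change among those called in a recovery contrast without overlap between groups, plus the 10 genes nearest to the members' profile and the 10 nearest to its opposite. Predicted genes were counted and not named, and some genes that the rule names are not reported here. Sequences are from RefSeq (GRCm38.p6).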

Additional observations from a re-analysis of the deposited data

How the results depend on the processing

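Of 142 recomputed counts of other Hox genes, 122 stayed within 1.5 times the value given above. For WT recovery against WT control, where 7 genes were called, an adjusted p under 0.01 gave 4, limma-voom with sample weights 17, and a fit of only the 2 groups 4. Leaving out single libraries gave 4 to 15 (4 without WT control 1, 15 without WT control 2, 4 without WT recovery 2). KO recovery against KO control, with 14, ranged from 12 to 13 when single libraries were left out, WT AOM/DSS against WT recovery, with 16, from 15 to 17, and KO AOM/DSS against KO recovery, with 15, from 14 to 17. For KO control against WT control, with 0, DESeq2 called 4, and leaving out single libraries gave 0 to 3 (3 without WT control 1 and 3 without WT control 3). For WT AOM/DSS against WT control, with 6, counts were 0 at an adjusted p under 0.01, in the fit of only the 2 groups, with the replicate block and without WT AOM/DSS 3, 2 without the filter and without WT control 2, and 3 with limma-voom and without WT AOM/DSS 1 or 2. For KO AOM/DSS against KO control, with 0, DESeq2 called 1 and limma-voom 2. Why these counts moved was not tested. The counts without WT control 2 for the cluster neighbours, the interaction terms and the members outside the recovery contrast were chosen after seeing the data.

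WT and KO control libraries share the numbers 1 to 3 in the labels. Same-numbered libraries deviated from their group means with correlations of 0.192, -0.0307 and 0.121 over 2000 genes. WT control 2 lay far from WT control 1 and 3 and so dominates the WT deviations. The correlations therefore cannot decide whether the numbers mark pairs. With the replicate block the count was 10 for WT recovery, 14 for KO recovery and 0 for KO control against WT control.

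Of 1948 recomputed fold changes of single genes, 13 changed sign, each of them a change that was not called. These were, on the log2 scale, Hoxa2 in WT (-0.13) and Hoxaas3 in KO (-0.13) by limma-voom, and Eed in KO with upper-quartile scaling (-0.085), a minimum of 1 CPM (-0.0075) and limma-voom (-0.053). The others changed sign when single libraries were left out, with ranges of -0.086 to 0.51 for Hoxaas3 in KO, -0.046 to 0.12 for Eed in KO, -0.21 to 0.022 for Cdx1 in KO, -0.069 to 5.32 for Alpi in WT and -0.093 to 5.63 for Fabp2 in WT, the last pair being highest without WT control 2. With CPM on total counts, 4 of the members' group means moved by more than 1 SD, among them Hoxb13 in KO AOM/DSS at 393 CPM. Depth (17643058 to 27390344 reads) limits values near 0, where Hoxd12, Hoxd13 and Hoxc10 rest on 0 to 3 reads per library in recovery.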

Other observations

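The AOM/DSS libraries differed among themselves in genes that do not follow the members. Lyz1, the lysozyme of Paneth cells, was at 21.1, 148 and 1088 CPM in WT AOM/DSS 1, 2 and 3 and at 488 and 362 in KO AOM/DSS 1 and 3, while KO AOM/DSS 2 lay inside the range of the controls (2.51 to 10.8 CPM). Onecut2, a foregut and duodenal transcription factor, was at 0, 1.27 and 13.7 CPM in WT and 2.95, 0.292 and 4.23 in KO, and the squamous keratin Krt13 at 0.968, 12.1 and 24.1 CPM in WT and 15.6, 1.72 and 21.1 in KO. Hoxd13 varied from 192 to 235 CPM over the same 6 libraries.

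Hoxc6, a gene of the Hoxc cluster, was at 0.982 CPM in WT control 2 and 0.139 to 1.23 CPM in recovery and had no read in the other 11 libraries, which makes KO recovery at least 10.3-fold higher than KO control. Its test did not pass (adjusted p = 0.097 in KO by edgeR), and it was named here after its values were seen.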
